A study of Mus musculus with 9 samples.

Results

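The mitochondrial carriers of the Slc25 family were followed through an RNA immunoprecipitation of CELF2. Members were all protein-coding genes whose symbol is *Slc25a* followed by a number, which gave 47 of the 21254 protein-coding genes with rows in the transcript count table, and the rows of each gene were summed. Of these, 41 reached 0.5 CPM (counts scaled to a common library size) in at least 3 of the 9 libraries and were tested among 15267 genes. All 9 libraries came from the cytoplasmic fraction of cortices of mice heterozygous for a *Celf2* knock-in (KI) allele, taken at postnatal day 0. They comprised 3 CELF2-KI RIP libraries, made with a rabbit antibody against CELF2, 3 IgG RIP libraries, made with normal rabbit IgG, and 3 input libraries, made from some of the same fraction kept back before any antibody was used. Every library therefore carries the KI allele, and no wild-type library was among them, so the comparisons are between antibodies or between a RIP and its starting RNA. The antibody is not described as specific to the KI form.

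Carriers of the Slc25 family sit mostly in the inner mitochondrial membrane and pass nucleotides, phosphate, keto acids, amino acids, cofactors and iron between the cytosol and the matrix. They are encoded in the nucleus, translated in the cytosol and inserted by the carrier import machinery. In the brain they feed oxidative phosphorylation, carry reducing equivalents in the malate-aspartate shuttle and supply the matrix with NAD+, coenzyme A and glutathione. CELF2 is an RNA-binding protein of the CELF family, which acts in splicing in the nucleus and in mRNA stability and translation in the cytoplasm.

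Protein-coding counts ranged from 13523208 to 16840312 per library in CELF2-KI RIP, from 9347321 to 14965243 in IgG RIP and from 55250740 to 78514685 in input, so input values carry the least counting error. The *Slc25a* genes held 0.122% to 0.136% of these counts in CELF2-KI RIP, 0.114% to 0.125% in IgG RIP and 0.163% to 0.168% in input. Rows of the table without a matched gene took 21.1% to 43.5% of the counts in IgG RIP, against 9.24% to 9.75% in input and 11.6% to 12.6% in CELF2-KI RIP. The mRNA of *Celf2* itself rose in CELF2-KI RIP, by a log2 fold change of 1.46 ± 0.18 (SE) over IgG RIP and 1.11 ± 0.18 over input. Values per library are CPM scaled by the trimmed mean of M values (TMM). They are shares of a library and are not corrected for transcript length, so they compare libraries for a gene, not genes with each other. The cortices were used whole, so the values do not say which cell types an mRNA came from. The groups compare RNA recovered from the same kind of fraction, not numbers of cells.

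*Slc25a51*, *Slc25a1*, *Slc25a36* and *Slc25a16* passed the test as higher than both IgG RIP and input, and *Slc25a5*, *Slc25a23* and *Slc25a20* as lower than both, which are shares of the family near those of all genes. A gene was called where the Benjamini-Hochberg false discovery rate (FDR) of the edgeR quasi-likelihood test across all genes was under 0.01 and the change at least 2-fold. Against IgG RIP, 8 of 41 members were called higher, beside 13.4% of all genes tested, and 3 were called lower, beside 13.6%. Without input 2, 5 were called lower, with *Slc25a4* and *Slc25a18* added. Against input, 7 members were called higher, beside 14.6% of all genes, and 8 lower, beside 15.5%. Called higher than both controls, which is the definition of a target here, were 4 members, or 9.76% of those tested beside 7.58% of all genes. The 3 members called lower than both made up 7.32%, beside 9.54%. With libraries scaled by total counts in place of TMM, the median of all genes over IgG RIP moved from -0.06 to -0.42, and the members called higher and lower were 5 and 8 against IgG RIP and 1 and 8 against both controls.

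The median log2 fold change of the 41 members over IgG RIP was 0.27, with quartiles at -0.46 and 0.85 and a range from -2.25 to 2.15. Over all genes the median was -0.06 with quartiles at -0.78 and 0.68. The members' median was 0.13 without IgG RIP 1 and 0.16 without input 2. Under total counts the members' medians turned negative, at -0.10 over IgG RIP and -0.19 over input. Of the 41, 23 had a value above 0, beside 48% of all genes. Over input the members' median was 0.28, with 22 above 0 beside 56.4%, and that of all genes 0.19, and the members' median was 0.17 without input 2 or without input 3. Judged by the libraries alone, 13 members had the 3 CELF2-KI RIP values above every one of the 6 control values, beside 25.2% of all genes, and 9 had them below, beside 19.9%.

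The counts depended on the rule. At an edgeR FDR under 0.05 with no fold limit, 13 members were higher than IgG RIP, beside 28.6% of all genes, and 10 lower, beside 26.8%. Against input the same rule gave 14 higher, beside 34.8%, and 13 lower, beside 25.6%, and against both controls 12 higher, beside 22.6%, and 10 lower, beside 18.1%. For IgG RIP over input it gave 2 higher, beside 20.2%, and 8 lower, beside 19.5%. When edgeR tested for a change beyond 2-fold (glmTreat, FDR under 0.01), 3 members, *Slc25a51*, *Slc25a39* and *Slc25a44*, were higher than IgG RIP, beside 3.57%, and *Slc25a5* alone was lower, beside 4.07%. In that test *Slc25a51* was the 1 member higher than input, beside 2.22%, and than both controls, beside 0.793%, while 3 members were lower than input, beside 7.32%, and 1 lower than both, beside 2.97%. IgG RIP and input gave 0 members higher and 0 lower under glmTreat, beside 0.655% and 0.347% of all genes, with 4 and 9 at an unadjusted p under 0.05.

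**Figure D1:**
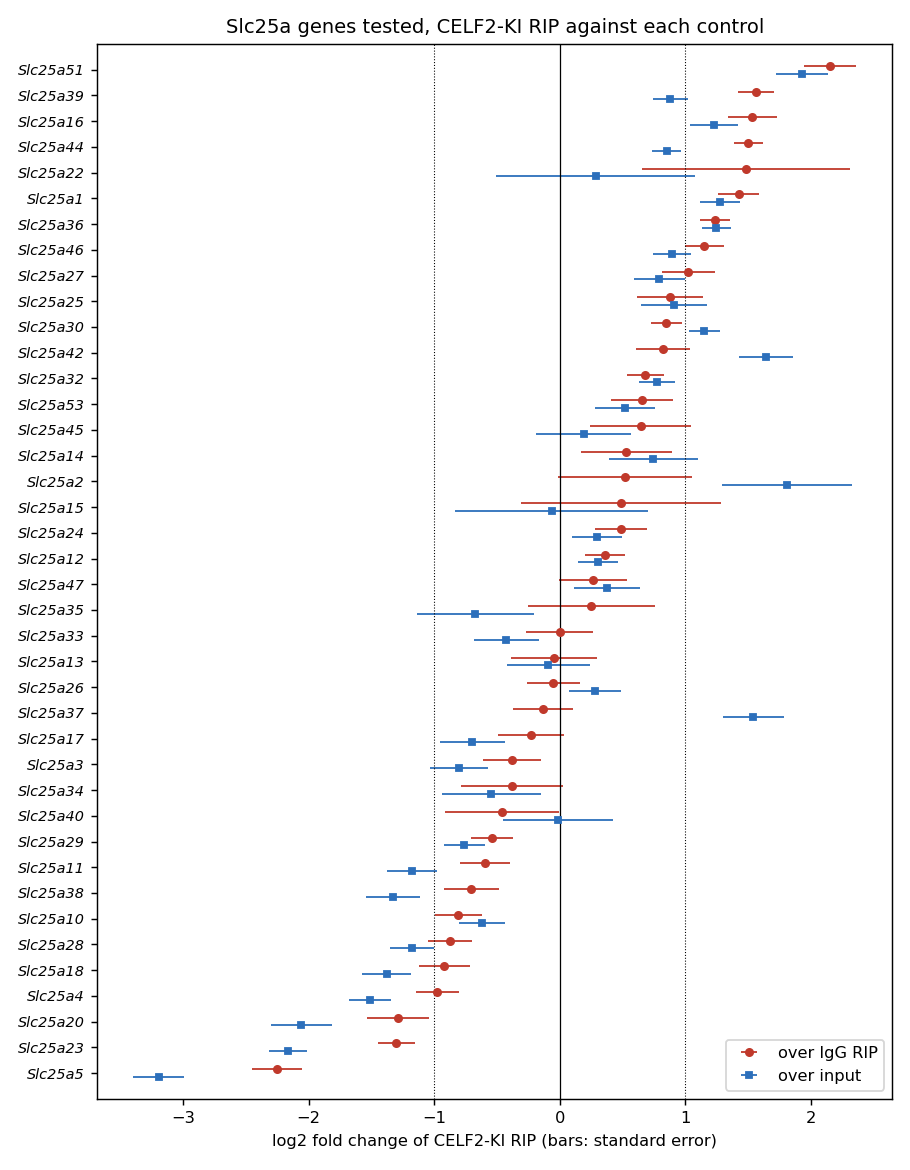
Log2 fold changes in CELF2-KI RIP relative to IgG RIP (circles) and to input (squares) for 40 of the 41 *Slc25a* genes tested, ordered by the value over IgG RIP, with bars for 1 standard error and dotted lines at 2-fold. The values over IgG RIP run from -2.25 for *Slc25a5* to 2.15 for *Slc25a51*.

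*Slc25a51*, the carrier that brings NAD+ into the matrix, had the largest rise of the family. It stood at 69.6, 71.8 and 78.8 CPM in input, 59.8, 78.9 and 50.3 CPM in IgG RIP, and 221, 361 and 255 CPM in CELF2-KI RIP. Each CELF2-KI RIP library lay far above all 6 controls, and the controls overlapped each other. The log2 fold change was 2.15 ± 0.21 over IgG RIP (edgeR FDR = 2.31e-05) and 1.93 ± 0.21 over input (FDR = 3.24e-05). It was the member that stayed a target when the libraries were scaled by total counts, at 1.76 over IgG RIP and 1.45 over input. The gene lies on chromosome 4 from 45395923 to 45408917 in GRCm38.

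*Slc25a1*, which exports citrate from the matrix, was at 54.3, 48.3 and 59.7 CPM in input, 43.9, 46.7 and 55.9 CPM in IgG RIP and 118, 160 and 115 CPM in CELF2-KI RIP. No CELF2-KI RIP library came near a control. Its rise was 1.43 ± 0.16 on the log2 scale over IgG RIP (edgeR FDR = 5.36e-05) and 1.28 ± 0.16 over input (FDR = 8.19e-05). *Slc25a1* is on chromosome 16, 17925211 to 17928219, and has 1 transcript row.

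*Slc25a36*, a carrier of pyrimidine nucleotides, had the smallest standard errors of the targets. In input it was at 50.8, 49.2 and 41.0 CPM, in IgG RIP at 45.1, 46.4 and 50.3 CPM, and in CELF2-KI RIP at 109, 117 and 108 CPM. The controls overlapped, with a log2 fold change of IgG RIP over input of 0.01 ± 0.12. The rise came to 1.24 ± 0.12 over IgG RIP (edgeR FDR = 2.06e-05) and 1.25 ± 0.12 over input (FDR = 1.62e-05). Its position is chromosome 9, 97075281 to 97111041.

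*Slc25a16*, linked to coenzyme A transport, was at 13.1, 12.1 and 12.1 CPM in input and 13.1, 9.32 and 7.74 CPM in IgG RIP. CELF2-KI RIP held 29.0, 32.6 and 26.0 CPM, all above the 6 controls. These gave 1.53 ± 0.20 over IgG RIP (edgeR FDR = 0.000109) and 1.23 ± 0.19 over input (FDR = 0.000307). The gene spans 62920632 to 62946494 on chromosome 10 and overlaps 2 other gene models. The 4 targets were called against both controls in all 9 fits that left out 1 library. Scaled by total counts, *Slc25a1*, *Slc25a36* and *Slc25a16* were at 0.81, 0.78 and 0.76 over input and lost that call. They lost it too with TMM over coding and noncoding genes, at 0.88, 0.85 and 0.84, and *Slc25a16* with upper quartile scaling (0.99) and *Slc25a36* with curated mRNA rows alone (0.95). Over IgG RIP, *Slc25a36* lost its call under total counts (0.87) and upper quartile scaling (0.97).

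**Figure D2:**
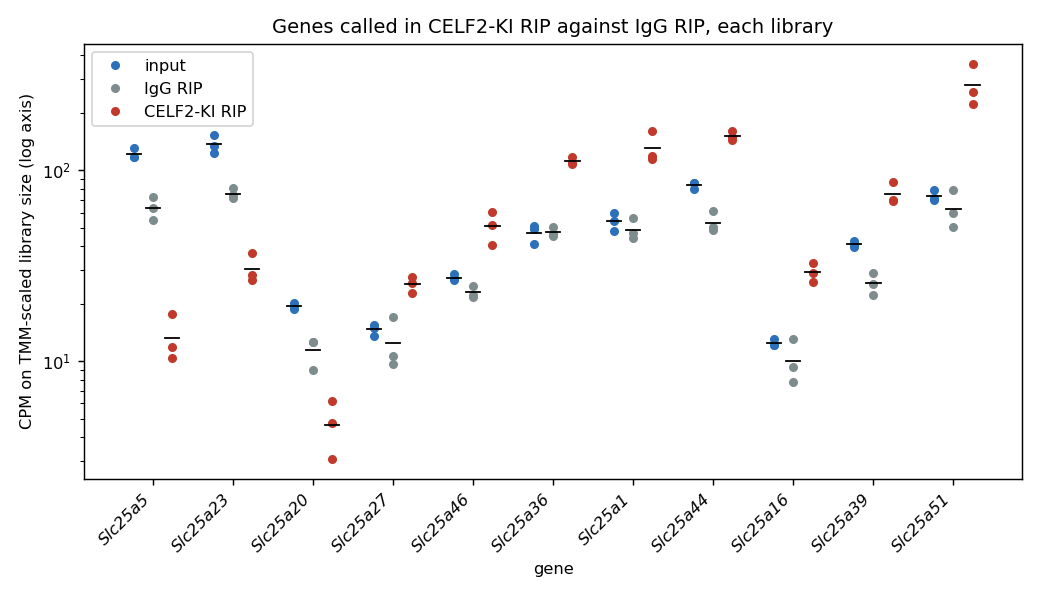
CPM in each library (points, log axis) with the mean of the 3 libraries of a group (black bars) for the 11 *Slc25a* genes called in CELF2-KI RIP against IgG RIP. *Slc25a51* reached 221 to 361 CPM in CELF2-KI RIP, while *Slc25a5* fell to between 10.4 and 17.6 CPM.

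Another 4 members were called over IgG RIP but rose less than 2-fold over input. *Slc25a44*, a carrier of branched-chain amino acids, was at 85.4, 80.0 and 85.5 CPM in input, 50.2, 48.4 and 61.0 CPM in IgG RIP and 143, 160 and 149 CPM in CELF2-KI RIP. Its 3 groups did not overlap, since IgG RIP lay below input and CELF2-KI RIP above it. Over IgG RIP the log2 fold change was 1.5 ± 0.12 (edgeR FDR = 1.01e-05) and over input 0.85 ± 0.12. *Slc25a39*, which imports glutathione, had the same order, with 40.6, 39.6 and 42.5 CPM in input, 22.3, 28.8 and 25.4 CPM in IgG RIP and 69.5, 86.8 and 69.3 CPM in CELF2-KI RIP. It reached 1.56 ± 0.14 over IgG RIP (edgeR FDR = 1.63e-05) and 0.88 ± 0.14 over input. For both genes IgG RIP was itself below input, at -0.65 (FDR = 0.00196) and -0.68 (FDR = 0.00399).

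*Slc25a46*, an outer membrane protein of the family with a role in mitochondrial dynamics, held 26.5, 28.4 and 27.2 CPM in input, 24.7, 21.7 and 22.3 CPM in IgG RIP and 40.7, 60.1 and 51.6 CPM in CELF2-KI RIP. CELF2-KI RIP was the high group without overlap, at 1.15 ± 0.15 over IgG RIP (edgeR FDR = 0.000146) and 0.89 ± 0.15 over input. Without CELF2-KI RIP 1 the latter was 1.03 and was called. The call over IgG RIP was lost under total counts (0.77), upper quartile scaling (0.88), TMM over coding and noncoding genes (0.92) and, just under 2-fold, with curated mRNA rows alone. *Slc25a27*, related to the uncoupling proteins and expressed in brain, was at 15.5, 13.6 and 15 CPM in input, 10.7, 9.61 and 17.1 CPM in IgG RIP and 22.9, 25.8 and 27.5 CPM in CELF2-KI RIP. It sat at the edge of the 2-fold limit, at 1.02 ± 0.21 over IgG RIP (edgeR FDR = 0.00207). That call was lost without IgG RIP 1 (0.91), IgG RIP 2 (0.88), CELF2-KI RIP 3 (0.96) or input 2 (0.92), so it rests on single libraries. With all libraries kept it was lost under total counts (0.66), upper quartile scaling (0.76) and TMM over coding and noncoding genes (0.79). It was lost too with DESeq2 size factors (0.95), the DESeq2 Wald test (0.95), no filter (0.93) and the filter at 2 CPM (0.99). Curated mRNA rows alone gave 1.02 with no call (edgeR FDR = 0.022).

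The members called over input but not over IgG RIP in the reported fit were *Slc25a30*, *Slc25a42* and *Slc25a37*. *Slc25a30*, another relative of the uncoupling proteins, had 10.3, 10.6 and 10.7 CPM in input, 13.2, 12.8 and 12.9 CPM in IgG RIP and 22.3, 23.9 and 23.8 CPM in CELF2-KI RIP. The 3 groups were separate, and the rise was 1.15 ± 0.12 over input (edgeR FDR = 3.01e-05) and 0.85 ± 0.12 over IgG RIP (FDR = 0.000238). The call over input was lost under total counts (0.69), upper quartile scaling (0.91) and TMM over coding and noncoding genes (0.76). With curated mRNA rows alone it was called over IgG RIP as well (1.07, edgeR FDR = 0.00609), and so against both controls. *Slc25a42*, a coenzyme A carrier, was at 10.7, 9.95 and 11.9 CPM in input, 21.1, 15.6 and 20.6 CPM in IgG RIP and 24.8, 43.9 and 32.8 CPM in CELF2-KI RIP. Its rise over input of 1.64 ± 0.21 (edgeR FDR = 0.000105) stood beside a difference of 0.82 between IgG RIP and input (FDR = 0.0126). Over IgG RIP it was at 0.82 ± 0.21 (FDR = 0.00788), and it passed 2-fold and was called without CELF2-KI RIP 1.

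*Slc25a37*, or mitoferrin 1, the iron importer known from red cell precursors, was the member recovered by IgG. Input held 7.47, 8.71 and 7.89 CPM, IgG RIP 27.1, 26.2 and 23.8 CPM and CELF2-KI RIP 16.0, 33.6 and 20.4 CPM. Both RIPs were above input, and they overlapped each other. IgG RIP exceeded input by 1.68 ± 0.24 (edgeR FDR = 0.000669), while CELF2-KI RIP differed from IgG RIP by -0.14 ± 0.24 (FDR = 0.655). With curated mRNA rows alone neither RIP was called over input, at 2.31 for IgG RIP (FDR = 0.228) and 2.45 for CELF2-KI RIP (FDR = 0.153). It was 1 of 41 members called higher in IgG RIP than input, beside 6.79% of all genes. The members called lower in that comparison numbered 0 by edgeR, beside 5% of all genes, with 9 at an unadjusted p under 0.05 and 1 called by the DESeq2 Wald test. The members' median of IgG RIP over input was -0.23, with 12 of 41 above 0 beside 49.8% of all genes, whose median was 0.00.

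On the low side, *Slc25a5*, an ADP/ATP carrier of the inner membrane, showed the largest fall. It went from 131, 117 and 117 CPM in input and 54.6, 63.0 and 72.3 CPM in IgG RIP to 17.6, 11.9 and 10.4 CPM in CELF2-KI RIP. The groups formed 3 separate levels, with IgG RIP in the middle. The log2 fold change was -2.25 ± 0.20 over IgG RIP (edgeR FDR = 1.38e-05), -3.19 ± 0.20 over input (FDR = 1.7e-06) and -0.94 ± 0.18 for IgG RIP over input (FDR = 0.0031). *Slc25a5* is on the X chromosome, 36795597 to 36798808.

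*Slc25a23*, a calcium-regulated ATP-Mg/phosphate carrier, was at 134, 123 and 153 CPM in input, 74.1, 71.2 and 80.3 CPM in IgG RIP and 36.9, 28.1 and 26.5 CPM in CELF2-KI RIP. Again the order was input, IgG RIP, CELF2-KI RIP, with no overlap. The change came to -1.30 ± 0.15 over IgG RIP (edgeR FDR = 5.36e-05) and -2.16 ± 0.15 over input (FDR = 3.15e-06). The gene is on chromosome 17, 57043711 to 57059909. *Slc25a20*, the carnitine/acylcarnitine carrier of fatty acid oxidation, fell from 19.3, 18.8 and 20.1 CPM in input and 9.01, 12.6 and 12.5 CPM in IgG RIP to 6.16, 3.08 and 4.73 CPM in CELF2-KI RIP. It too had 3 separate levels, at -1.29 ± 0.25 over IgG RIP (edgeR FDR = 0.00131) and -2.06 ± 0.24 over input (FDR = 5.69e-05), and lies at 108662136 to 108684642 of chromosome 9. *Slc25a5*, *Slc25a23* and *Slc25a20* were called lower than both controls in all 9 fits that left out 1 library and under total counts.

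Called lower than input but not than IgG RIP in the reported fit were *Slc25a4*, *Slc25a18*, *Slc25a28*, *Slc25a38* and *Slc25a11*. *Slc25a4*, the other ADP/ATP carrier tested, was at 209, 205 and 198 CPM in input, 118, 138 and 166 CPM in IgG RIP and 89.9, 62.0 and 62.8 CPM in CELF2-KI RIP. All 3 CELF2-KI RIP libraries were the lowest, and the value over IgG RIP, -0.97 ± 0.17 (edgeR FDR = 0.000739), was just short of 2-fold. It passed that limit without CELF2-KI RIP 1 (-1.17), without IgG RIP 1 (-1.09) or without input 2 (-1.08). With all libraries kept it was also called under total counts (-1.33), upper quartile scaling (-1.24) and TMM over coding and noncoding genes (-1.19). The same held with DESeq2 size factors (-1.04), by the DESeq2 Wald test (-1.04) and with curated mRNA rows alone (-1.12). It held as well without a filter (-1.06) and with the filter at 2 CPM (-1.01). Its call against IgG RIP therefore moves with the libraries, scaling, filter and test. Over input it fell by 1.51 on the log2 scale.

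*Slc25a18*, a glutamate carrier, was at 19.0, 16.6 and 14.0 CPM in input, 13.5, 12.4 and 10.2 CPM in IgG RIP and 7.04, 6.93 and 5.09 CPM in CELF2-KI RIP. It was lowest in CELF2-KI RIP without overlap, at -1.38 ± 0.20 over input (edgeR FDR = 0.000184) and -0.92 ± 0.20 over IgG RIP (FDR = 0.00288). Without IgG RIP 3 or input 2 the latter became -1.03 and -1.02 and was called. With all libraries kept it was called under total counts (-1.29), upper quartile scaling (-1.18) and TMM over coding and noncoding genes (-1.13). It was called without a filter too (-1.01). *Slc25a28*, mitoferrin 2, held 17.6, 16.6 and 18.8 CPM in input, 17.5, 12.1 and 13.3 CPM in IgG RIP and 8.56, 7.01 and 7.85 CPM in CELF2-KI RIP. This iron carrier fell by 1.18 on the log2 scale relative to input (edgeR FDR = 0.000229), with all CELF2-KI RIP libraries below the controls. With curated mRNA rows alone it was at -0.32 over input (FDR = 0.616) and lost that call. *Slc25a18* had no value with curated rows alone.

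*Slc25a38*, a glycine carrier needed for heme synthesis, was at 15.4, 14.4 and 13.8 CPM in input, 10.3, 10.2 and 7.81 CPM in IgG RIP and 7.68, 4.85 and 4.82 CPM in CELF2-KI RIP. The highest CELF2-KI RIP library lay just under the lowest IgG RIP library, and the difference from input was -1.33 ± 0.21 (edgeR FDR = 0.000407). *Slc25a11*, the oxoglutarate/malate carrier of the malate-aspartate shuttle, had 45.3, 44.8 and 46.5 CPM in input, 37.2, 30.7 and 23.4 CPM in IgG RIP and 25.1, 16.6 and 18.7 CPM in CELF2-KI RIP. Here CELF2-KI RIP overlapped IgG RIP but not input, from which it differed by -1.17 ± 0.20 (edgeR FDR = 0.000524), and with curated mRNA rows alone by -0.93 with no call (FDR = 0.0356). The 5 erythroid markers examined are globins and a heme synthesis enzyme. All 5 were called lower than IgG RIP, beside 13.6% of all genes. *Slc25a28* (-0.87 ± 0.18, edgeR FDR = 0.00187) and *Slc25a38* (-0.71 ± 0.22, FDR = 0.0188) were lower than IgG RIP but under 2-fold, without a call. *Slc25a28* was called under total counts (-1.24), upper quartile scaling (-1.14) and TMM over coding and noncoding genes (-1.08). *Slc25a38* was called under total counts (-1.06). *Slc25a37* was at 1.54 over input and -0.14 over IgG RIP. The markers summed to 877 to 1135 CPM in input, 366 to 584 CPM in IgG RIP and 92.7 to 95.0 CPM in CELF2-KI RIP. Their part in the values of the heme and iron carriers was not tested.

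*Slc25a3*, the phosphate carrier, was not called, although it had the second highest CPM of the family in input, at 175, 169 and 174. It held 108, 122 and 157 CPM in IgG RIP and 141, 71.7 and 85.1 CPM in CELF2-KI RIP, where replicate 1 stood apart from the others. The value was -0.38 ± 0.23 over IgG RIP (edgeR FDR = 0.19) and -0.80 ± 0.23 over input (FDR = 0.012), and without CELF2-KI RIP 1 the latter was -1.14 and was called. Among the 5 members with the highest CPM in input, *Slc25a4*, *Slc25a3*, *Slc25a23* and *Slc25a5* had negative values over IgG RIP and *Slc25a44* a positive one.

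Carriers of the same substrate or subfamily were compared by their ratio within a library, which does not depend on how libraries were scaled. The level of such a ratio depends on transcript length and was not read, while its difference between groups was. Reads that close relatives share are divided between them by the counting program's estimate. The ratios of 13 pairs were examined, as a description without a test. In 5 of the 13 the CELF2-KI RIP ratios lay outside the range of the controls. No share over other gene pairs was set beside this. Each of the 5 holds a member already called from the same values, so the ratios are no separate support. In the other pairs, *Slc25a28* to *Slc25a37* and *Slc25a16* to *Slc25a42* among them, the ratios overlapped those of the controls. *Slc25a4* to *Slc25a5* moved from a mean log2 ratio of 0.75 ± 0.07 (SD, n = 3) in input and 1.15 ± 0.05 in IgG RIP to 2.44 ± 0.13 in CELF2-KI RIP. In each CELF2-KI RIP library the ratio was above those of all 6 controls.

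Among the ATP-Mg/phosphate carriers, *Slc25a23* was compared with 2 relatives. Its log2 ratio to *Slc25a24* went from 4.55 ± 0.17 in input and 3.89 ± 0.25 in IgG RIP to 2.09 ± 0.38, and that to *Slc25a25* from 1.48 ± 0.01 and 0.68 ± 0.77 to -1.61 ± 0.23 (SD, n = 3). *Slc25a25* itself was at 47.6, 44.2 and 55.3 CPM in input, 63.5, 60.1 and 26.9 CPM in IgG RIP and 94.0, 91.9 and 90.6 CPM in CELF2-KI RIP. It was the highest in CELF2-KI RIP without overlap, but the spread of IgG RIP left it at 0.88 ± 0.26 (edgeR FDR = 0.0162). *Slc25a24* held 5.37, 5.98 and 5.94 CPM in input, 4.07, 5.45 and 5.66 CPM in IgG RIP and 6.56, 6.70 and 7.94 CPM in CELF2-KI RIP, with no call (0.48 ± 0.21, FDR = 0.0695).

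For the pyrimidine nucleotide carriers, the log2 ratio of *Slc25a33* to *Slc25a36* was -2.34 ± 0.07 in input, -2.78 ± 0.24 in IgG RIP and -4.07 ± 0.56 in CELF2-KI RIP (SD, n = 3). *Slc25a33* was at 10.3, 9.15 and 8.23 CPM in input, 7.82, 6.44 and 6.31 CPM in IgG RIP and 10.0, 5.16 and 5.44 CPM in CELF2-KI RIP. Its groups overlapped, with a log2 fold change over IgG RIP of 0.00 ± 0.27. For the glutathione carriers, *Slc25a39* and *Slc25a40*, the ratio overlapped with input. *Slc25a40* had 4.26, 3.02 and 2.04 CPM in input, 5.63, 3.87 and 3.15 CPM in IgG RIP and 1.36, 4.47 and 3.39 CPM in CELF2-KI RIP, at -0.46 ± 0.45 over IgG RIP.

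The glutamate carriers *Slc25a22* and *Slc25a18* had CELF2-KI RIP ratios outside the range of the controls, but *Slc25a22* was erratic. It was listed at 32.3, 24 and 14.0 CPM in input, 22, 0.20 and 7.74 CPM in IgG RIP and 25.4, 17.8 and 42.7 CPM in CELF2-KI RIP. All 3 groups overlapped, and 1.48 ± 0.83 over IgG RIP was not called (edgeR FDR = 0.155). The aspartate/glutamate carriers of the malate-aspartate shuttle, *Slc25a12* and *Slc25a13*, had overlapping ratios. *Slc25a12*, the main form in brain, was at 74.1, 73.4 and 74.7 CPM in input, 64.4, 56.9 and 92.0 CPM in IgG RIP and 94.1, 88.3 and 91.6 CPM in CELF2-KI RIP, with overlap between the RIPs (0.36 ± 0.16, FDR = 0.0814). *Slc25a13* had between 2.46 and 5.36 CPM in the 9 libraries, at -0.05 ± 0.34 over IgG RIP.

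**Figure D3:**
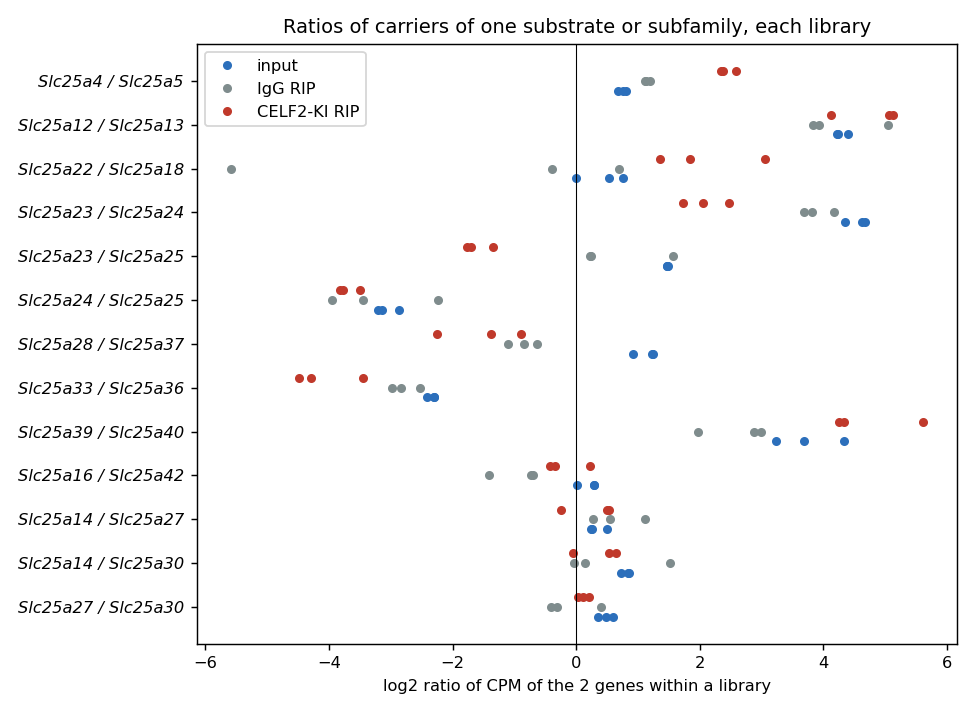
Log2 ratio of the CPM of 2 carriers within each library for 13 pairs, with 1 point per library. The ratio of *Slc25a4* to *Slc25a5* lies between 2.35 and 2.59 in CELF2-KI RIP, above the 0.67 to 1.2 of the 6 controls.

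*Slc25a14*, with *Slc25a27* and *Slc25a30* one of the uncoupling protein relatives of the brain, was at 18.5, 19.1 and 17.7 CPM in input, 13.0, 14.1 and 37.1 CPM in IgG RIP and 32.2, 37.3 and 23.1 CPM in CELF2-KI RIP. IgG RIP 3 alone lay within the CELF2-KI RIP range. The value over IgG RIP was 0.53 ± 0.36 (edgeR FDR = 0.24), and 1.19 and called without that library.

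The remaining 13 tested members were not called in any comparison of the reported fit. Relative to IgG RIP their log2 fold changes lay between -0.81 and 0.68, and relative to input between -0.76 and 1.81, and 4 of them passed an edgeR FDR of 0.05 over IgG RIP. *Slc25a32*, a carrier linked to folate and FAD, was the highest and *Slc25a10*, the dicarboxylate carrier, the lowest in that comparison. *Slc25a10* was called lower than IgG RIP under total counts (-1.18), upper quartile scaling (-1.07) and TMM over coding and noncoding genes (-1.02). Under total counts *Slc25a17* and *Slc25a29* were called lower than input (-1.15 and -1.22). *Slc25a2*, at 0.36 CPM in input, was called higher than input by the DESeq2 Wald test (1.68). It was under 0.5 CPM in every input library and entered the test only through the RIP libraries, where it was higher. Its value of 1.81 over input, the top of the range above, and its place among the members higher than input at an FDR of 0.05 therefore carry no weight. The 6 members left untested for low values were *Slc25a21*, *Slc25a31*, *Slc25a41*, *Slc25a43*, *Slc25a48* and *Slc25a54*. *Slc25a41* was at 0 in every library, and the largest estimated count of the other 5 ranged from 3 for *Slc25a54* to 26.2 for *Slc25a21*. *Slc25a31*, the ADP/ATP carrier known from the germ line, reached 7. The span of 14 of the 47 members overlaps that of another gene model, whose reads may be counted with theirs, *Slc25a11*, *Slc25a16*, *Slc25a37*, *Slc25a39* and *Slc25a44* among them.

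Expression in input was set against the change in CELF2-KI RIP. Across 41 members the Spearman correlation of the log2 fold change over IgG RIP with the mean log2 CPM in input was -0.02 (Pearson -0.08), and across all 15267 genes it was 0.24 (Pearson 0.20). These are correlations across genes, which share the 9 libraries and their depth, and CPM grows with transcript length. All genes were split into 3 classes of equal size by input CPM, with limits at 8.60 and 37.5 CPM. The members' medians over IgG RIP were 0.27 for 13 members in the low class, 0.00 for 15 in the middle and 0.36 for 13 in the high class. The medians of all genes in these classes were -0.34, -0.10 and 0.32, so the gap between members and all genes was widest in the low class. This gap was not tested.

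The 8 higher calls over IgG RIP fell into the middle class, with 3, and the high class, with 5. The 3 lower calls gave 1 and 2, and the 4 targets 1 and 3. In all genes the share of targets was 2.0%, 6.86% and 13.9% from the low to the high class. In the low class 3 members, *Slc25a24*, *Slc25a32* and *Slc25a53*, had an unadjusted p under 0.05 without a call. For IgG RIP over input the Spearman correlation with expression was -0.40 in the members and -0.19 in all genes.

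By transcript number, 17 of the 47 members had 1 row in the table, 15 had 2 to 3 and 15 had 4 or more, up to 13 for *Slc25a26*, the S-adenosylmethionine carrier. Medians over IgG RIP were 0.24 for the 14 tested members with 1 row, 0.27 for 13 with 2 to 3 rows and 0.39 for 14 with 4 or more, beside -0.10, -0.02 and -0.06 for all genes. Higher calls numbered 3, 1 and 4 in these classes, and targets 2, 1 and 1, beside 7.83%, 7.80% and 7.16% of all genes in them. The Spearman correlation with the number of rows was 0.11 across the members and 0.02 across all genes, and without a filter on low values the former was -0.05, so it had no stable sign.

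**Figure D4:**
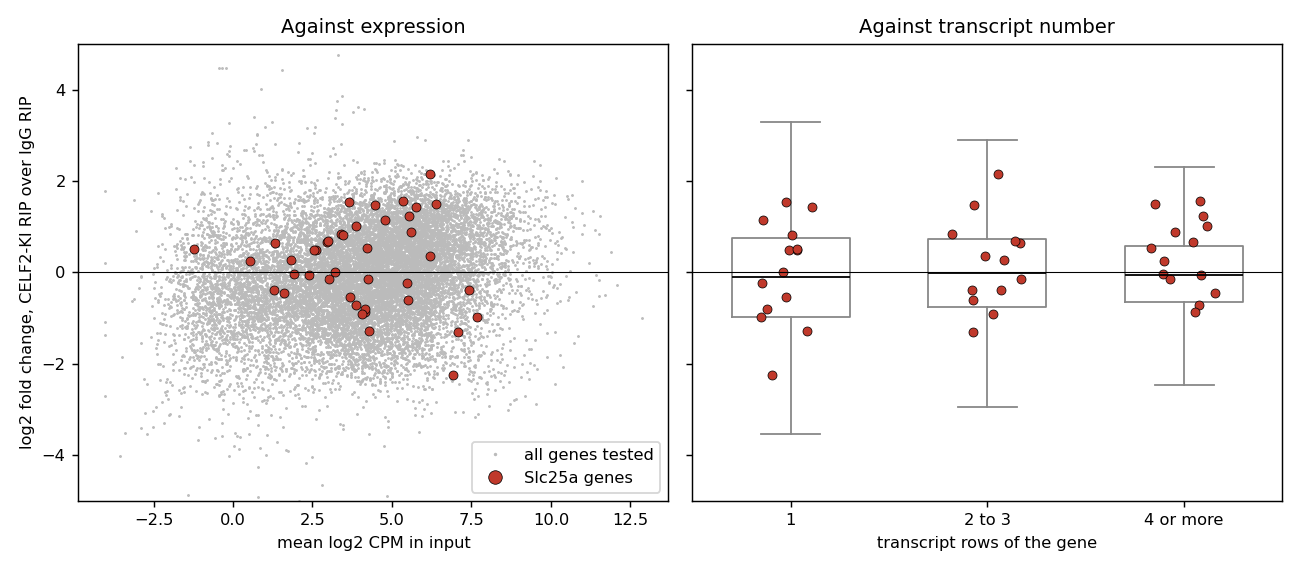
Log2 fold change relative to IgG RIP against mean log2 CPM in input (left; grey points are all genes tested, 30 of which lie outside the axis limits of 5 either way) and by number of transcript rows (right; boxes give the median and quartiles of all genes, whiskers reach to the last gene within 1.5 times the box height). Red points are the 41 *Slc25a* genes, whose medians by row class are 0.24, 0.27 and 0.39.

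Among single transcript rows, 92 rows of the members were tested with 39137 in all. Over IgG RIP 5 member rows were called higher, beside 3.19% of all rows, and 3 lower, beside 3.15%, and 2 rows were higher than both controls, beside 0.496%. Those 2 were the curated row of *Slc25a51*, at 1.90 ± 0.21, and a predicted row of *Slc25a36*, at 1.24 ± 0.19. The call of a predicted row of *Slc25a38* rests on a row at 0 in all IgG RIP libraries and under 2 CPM elsewhere. These counts rest on single libraries: 2 rows were called higher and 1 lower without CELF2-KI RIP 2, 2 were higher without input 1, and 3 were higher without input 2, input 3, IgG RIP 2 or CELF2-KI RIP 3. How reads are shared between rows of a gene is an estimate of the counting program. Some calls also differed for genes with 1 row. The row of *Slc25a1* was not called over input (0.79, edgeR FDR = 0.018). That of *Slc25a16* was called over neither IgG RIP (1.31, FDR = 0.0116) nor input (0.74, FDR = 0.0984). Over IgG RIP the rows of *Slc25a20* (-1.50, FDR = 0.0242) and *Slc25a46* (0.91) were not called, while that of *Slc25a4* was (-1.19, FDR = 0.00856).

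The rise of *Slc25a39* lay in 1 predicted row. That row was at 37.2, 36.6 and 41.8 CPM in input, 8.49, 13.8 and 15.7 CPM in IgG RIP and 49.9, 58.7 and 50.4 CPM in CELF2-KI RIP. Its groups were separate, with 2.07 ± 0.24 over IgG RIP (edgeR FDR = 0.0017). The curated row of the gene gave -0.40 ± 0.41, and with curated mRNA rows alone the gene was at -0.34 over IgG RIP and lost its call. *Slc25a36* had its main predicted row at 30.3, 24.8 and 23.3 CPM in input, 23.1, 20.2 and 27.3 CPM in IgG RIP and 49.9, 61.4 and 55.0 CPM in CELF2-KI RIP, and its curated row leaned the same way (1.54 ± 0.36, FDR = 0.0269). The 4 rows of *Slc25a44*, all curated, lay between 0.63 and 1.58 over IgG RIP, and the lowest FDR among them was 0.0169.

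**Figure D5:**
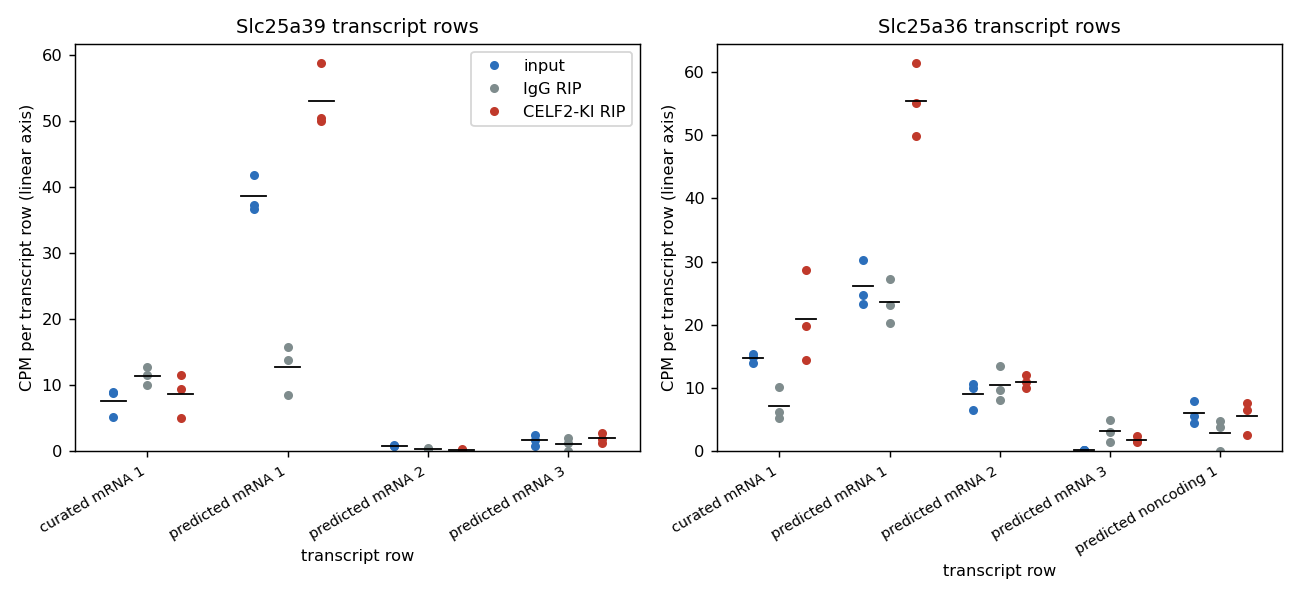
CPM per transcript row in each library (points) with group means (black bars) for *Slc25a39* and *Slc25a36*. The first predicted row of *Slc25a39* holds 49.9 to 58.7 CPM in CELF2-KI RIP and 8.49 to 15.7 CPM in IgG RIP, while the groups of its curated row overlap.

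Genes that work beside the carriers are set here beside all genes tested, of which 7.58% were called higher and 9.54% lower than both controls. Of 5 relatives in the family with other symbols, 3 were tested, and *Ucp2*, an uncoupling protein, was lower than both controls, at 35.6 ± 1.6 CPM in input, 16.1 ± 0.26 CPM in IgG RIP and 5.95 ± 0.88 CPM in CELF2-KI RIP (SD, n = 3). Of 13 genes for import of carriers, 3 were higher than both controls, namely *Timm29* (2.0 over IgG RIP), *Timm10* (2.09) and *Tomm20* (1.91), and 2 were lower, *Timm13* (-2.09) and *Tomm40* (-1.23). The median of the 13 was -0.46 over IgG RIP, beside -0.06 for all genes.

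Of 15 other carriers of the inner membrane and subunits of the calcium uniporter, *Sfxn3*, a sideroflexin, was higher than both controls (1.43 over IgG RIP), and *Mpc1* and *Mpc2*, which together form the pyruvate carrier, were lower (-1.02 and -2.13). The 3 outer membrane channels of the Vdac family had a median of -0.13 over IgG RIP and -0.77 over input. Of 7 shuttle enzymes, *Gpd1l* rose (1.5) and *Mdh2*, the matrix malate dehydrogenase, fell (-1.39), and of 8 enzymes that share substrates with the carriers, *Idh2* and *Shmt2* were lower than both controls (-1.55 and -1.41). The median over IgG RIP of the shuttle enzymes was 0.06 and that of the 8 enzymes -0.19.

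Some markers of cell types were called as well, beside 13.4% of all genes called higher than IgG RIP and 13.6% lower. Of 6 neuronal markers 4 were called higher than IgG RIP, and their sum was 4704 to 5065 CPM in input, 3403 to 4368 CPM in IgG RIP and 6301 to 7352 CPM in CELF2-KI RIP. Of 6 markers of radial glia and progenitors 3 were called lower, with sums of 367 to 385 CPM, 303 to 348 CPM and 125 to 169 CPM in the same order. Of 6 markers of cortical identity 3, *Tbr1* and *Bcl11b* among them, were higher than both controls, beside 7.58% of all genes. Against IgG RIP, 1 of 4 interneuron, 1 of 4 astrocyte and 1 of 4 tested microglial markers were called higher and 1 microglial marker lower. The part of these cell types in the values of the *Slc25a* genes was not tested.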

How the data were processed

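RNA was measured in 9 libraries. CELF2-KI RIP, IgG RIP and input had 3 each, which the labels call biological replicates. The authors depleted rRNA, made directional libraries, checked reads with FastQC 0.11.9, trimmed them with fastp 0.23.4, removed rRNA reads with Ribodetector 0.3.1 and quantified transcripts with kallisto 0.51.1. The estimated counts per transcript were deposited by the authors in 1 table, neither normalized nor summed. All 9 columns were used, and 0 were left out. The paper names Ensembl as the transcriptome, while the rows carry RefSeq identifiers.

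Rows were matched by identifier, ignoring the version, to a RefSeq gene table of GRCm38.p6. Of 107384 rows, 86722 matched and 20662 were left out. Counts were summed per gene and rounded. Protein-coding genes that reached 0.5 CPM in 3 or more of the 9 libraries were tested with edgeR 4.0.16 (R 4.3.3, limma 3.58.1), using TMM and the quasi-likelihood test with a mean per condition, and calls needed a Benjamini-Hochberg FDR under 0.01 and a 2-fold change. The paper names generalized linear models in edgeR 4.4.0 without the CPM limit or the test. Standard errors come from the model. Figures were drawn with Python 3.11.15, pandas 2.3.3, numpy 2.4.6 and matplotlib 3.10.9.

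Named genes are the members called in any comparison, the 5 with the highest CPM in input, carriers sharing a substrate and the 3 highest and 3 lowest over IgG RIP, with *Celf2* as a check. Other names were chosen after their values were seen. The members, gene lists and marker lists were chosen with earlier results of these data known. The steps were tested on simulated counts with 200 changed genes.

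Alternatives were DESeq2 size factors, total counts, upper quartile scaling, TMM over coding and noncoding genes, no filter, a filter at 2 CPM, the DESeq2 1.42.0 Wald test, curated mRNA rows alone, an FDR of 0.05 without a fold limit, a test against 2-fold (glmTreat), a replicate block and leaving out each library. Chi-square per gene between replicates of a group ran from 11.8 to 43.0, above the value of 1 that sampling alone gives. Deviations of same-numbered libraries from their group means correlated across 15267 genes at 0.110, 0.117 and 0.122 between CELF2-KI RIP and input. Between the 2 kinds of RIP they correlated at -0.056, 0.043 and 0.014, and between IgG RIP and input at 0.030, 0.065 and 0.038. No correlation between libraries of unlike number was set beside these, so pairing by number was not shown. The reads have no molecular identifiers, duplicates are therefore counted, and errors cover the spread of these libraries. Protein and mRNA sequences were not used here, and values of a few single genes are not reported here.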

Additional observations from a re-analysis of the deposited data

How the results depend on the processing

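Members called higher and lower than IgG RIP numbered 8 and 3 in the reported fit. They numbered 5 and 8 under total counts, 5 and 7 under upper quartile scaling, 13 and 10 at an FDR of 0.05 without a fold limit and 3 and 1 under glmTreat, and the lower ones were 7 with TMM over coding and noncoding genes and 5 without a filter. Against input, 7 and 8 became 14 and 13 at the FDR of 0.05 and 1 and 3 under glmTreat. The higher ones were 3 under total counts and 3 with TMM over coding and noncoding genes, and the lower ones 5 with curated rows alone. Against both controls, 4 and 3 became 1 and 8 under total counts, 2 and 6 under upper quartile scaling, 1 and 7 with TMM over coding and noncoding genes, 12 and 10 at the FDR of 0.05 and 1 and 1 under glmTreat, and the lower ones were 5 without a filter. For IgG RIP over input, 1 and 0 became 2 and 8 at the FDR of 0.05. The higher ones were 0 under glmTreat and 0 with curated rows alone, and the lower ones 1 with DESeq2 size factors, 1 under total counts, 1 by the DESeq2 Wald test and 2 with TMM over coding and noncoding genes. The cause of the shift between scalings was not tested.

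The members' median over IgG RIP of 0.27 was 0.20 with DESeq2 size factors and by the DESeq2 Wald test, -0.10 under total counts (all genes -0.42), 0.0026 under upper quartile scaling (all genes -0.32), 0.041 with TMM over coding and noncoding genes (all genes -0.27) and 0.17 without a filter. Over input it was 0.14 with DESeq2 size factors and by the Wald test, -0.19 under total counts, 0.0392 under upper quartile scaling, -0.12 with TMM over coding and noncoding genes, 0.15 without a filter and 0.22 with curated rows alone. For IgG RIP over input it was -0.30 with DESeq2 size factors and by the Wald test, -0.33 under total counts, -0.40 with TMM over coding and noncoding genes and -0.16 with curated rows alone. The correlation with the number of rows was -0.0500 without a filter and 0.0639 with curated rows alone.

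With the replicate number as a block the median over IgG RIP was 0.36, that over input was 0.24, and the block changed no call of a member.

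With curated mRNA rows alone, 3 values changed sign with an FDR under 0.05 in either fit, namely *Slc25a39* over IgG RIP (-0.34), *Slc25a39* in IgG RIP over input (0.97) and *Slc25a11* in IgG RIP over input (0.11). Of 1509 values of 28 named genes under alternatives, 57 other values changed sign with an FDR of 0.05 or more in both fits.

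Leaving out 1 library at a time gave 7 to 9 members called higher and 3 to 5 lower than IgG RIP, 7 to 9 higher and 8 to 9 lower than input, 4 to 6 higher and 3 to 5 lower than both controls, and 1 higher and 0 to 1 lower for IgG RIP over input (1 without IgG RIP 3). The lower calls reached 5 without input 2. Medians ran from 0.13 to 0.31 over IgG RIP, from 0.17 to 0.30 over input and from -0.28 to -0.21 for IgG RIP over input, the correlation with expression from -0.0728 to 0.0211 and that with rows from 0.0357 to 0.147. Called transcript rows, an alternative chosen after seeing the data, ran from 2 to 6 higher and from 1 to 3 lower. Depth limits the members under 0.5 CPM, of which nothing can be said, and kallisto's split between rows limits genes with several rows.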
